A study of Mus musculus with 18 samples.

Results

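Cd74, H2-Aa, H2-Ab1, H2-Eb1 and Ciita encode parts of the MHC class II presentation pathway, and their signal was followed across 6 groups of mouse heart cells. They are 5 of the 19912 genes measured, and each had 1 probe set that named it alone. The genes were chosen from a readout of the same arrays, the low level of Cd74 beside bright macrophage markers. The levels of Cd74 and of the macrophage markers are therefore a description with no test, and only the other 4 genes were tested. Gene expression was read on Affymetrix mouse Gene 1.0 ST arrays, 3 per group, from cells of CD1 mice, which are outbred.

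The groups were GFP+ induced cardiomyocyte-like cells (iCMs) at 2 weeks and at 4 weeks, GFP- cells in which reprogramming had failed at the same times, neonatal cardiomyocytes and neonatal cardiac fibroblasts. Neither the reprogramming factors, nor the promoter behind GFP, nor an age beyond neonatal is given in the labels. The 3 arrays of a group are described as biological replicates, without a statement on separate cultures or litters. A p-value here thus sets a difference between groups against the spread of arrays within groups, estimated over all 6 groups. Cardiomyocyte markers (6 genes) averaged 12.12 to 12.19 log2 on 4-week iCM arrays and 13.22 to 13.25 on cardiomyocyte arrays, against 7.46 to 7.62 on fibroblast arrays. Fibroblast markers (8 genes) averaged 10.44 to 10.80 on the fibroblast arrays, where 20 macrophage markers averaged 11.16 to 11.37. Levels of different lists are not to be compared with each other, since probe sets differ in response. In bulk RNA, fewer cells of a type and less RNA per cell cannot be told apart.

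MHC class II molecules are pairs of an alpha and a beta chain that carry peptides from ingested proteins to the cell surface, where CD4+ T cells read them. Dendritic cells, B cells and macrophages are the usual carriers, and macrophages raise class II when interferon-gamma reaches them. Ciita, the class II transactivator, does not bind DNA itself. It docks on factors that sit on a conserved module in the promoters of class II genes: the RFX complex on the X box, CREB on the adjoining X2 box and NF-Y on the Y box. The invariant chain Cd74 then fills the new class II groove and leads the complex to endosomes, where proteases cut it away and H2-DM exchanges the last fragment for peptide.

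The promoter module is shown because it is where the measured factors meet the class II genes. Promoter sequence (300 bases across the transcription start, RefSeq, GRCm38.p6) was used for 8 of 12 class II genes, H2-Aa and H2-Eb1 among them, 2 of the 5 members. The letters GCAAC (X box core) followed by GATTGG (Y box, the CCAAT motif read from the other strand) with 18 to 34 bases between them were found in 5 of the 8 genes. That spacing was set with these sequences in view. Among all 32851 promoters of 300 bases, 0.277% held the pair in this order on either strand, 35.2% held GCAAC and 16.1% held GATTGG. In the stretches below, written 5′ to 3′ on the gene's strand, capitals mark those letters.
H2-Aa, chr17:34287861-34287912, minus strand: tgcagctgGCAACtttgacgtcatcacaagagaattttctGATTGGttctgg
H2-Eb1, chr17:34305768-34305818, plus strand: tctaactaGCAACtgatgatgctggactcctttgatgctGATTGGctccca
H2-Eb2, chr17:34325535-34325585, plus strand: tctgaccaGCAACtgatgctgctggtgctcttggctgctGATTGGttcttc
H2-Oa, chr17:34092295-34092346, plus strand: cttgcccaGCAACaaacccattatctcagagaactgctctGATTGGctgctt
H2-Ob, chr17:34238810-34238858, plus strand: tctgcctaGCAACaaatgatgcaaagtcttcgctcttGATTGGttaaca
The gap between the motifs was 27 bases in H2-Aa and H2-Oa, 26 in H2-Eb1 and H2-Eb2 and 24 in H2-Ob. The palindrome TGACGTCA, the consensus CREB motif, lay between them in H2-Aa and was present in 1.79% of all promoters. Windows of H2-DMa, H2-DMb1 and H2-DMb2 did not hold the pair, which says only that these letters are not in those windows.

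On the arrays 4 of the 5 class II genes had every group mean below 7.03 log2, and H2-Eb1 had every group mean above it. A group mean was taken as not above background under 6.16 log2, which is the smallest of the 18 arrays' own 25th percentiles. The stricter limit of 7.03 log2 was the 95th percentile of 1018 olfactory receptor genes, whose median was 5.17. Array medians ran from 7.32 to 7.44 and array maxima from 13.82 to 13.95. No array in the series exceeded 7.88 log2 for any of the 5 genes. The files thus hold no array on which these probe sets were bright, class II genes differ in sequence between mouse strains, and the probe sequences were not used here.

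Cd74, the invariant chain, read 5.95, 6.17 and 5.97 log2 on the 2-week iCM arrays and 6.20, 5.94 and 6.32 on the 4-week iCM arrays. The 2-week GFP- arrays read 6.70, 6.88 and 6.72, and the 4-week GFP- arrays read 6.44, 6.28 and 6.15. Cardiomyocytes gave 5.98, 5.94 and 6.16, against 6.35, 6.51 and 6.36 in cardiac fibroblasts. The 2-week GFP- arrays lay above all other arrays, and the other groups overlapped with at least 1 neighbour. Means ranked 2-week GFP- cells (6.77 ± 0.10, SD, n = 3), fibroblasts (6.41 ± 0.09), 4-week GFP- cells (6.29 ± 0.14), 4-week iCMs (6.15 ± 0.19), 2-week iCMs (6.03 ± 0.12) and cardiomyocytes (6.03 ± 0.12). Of the 5 steps in this order, 2 were larger than the pooled SD of 0.132, the step below 2-week GFP- cells (0.362) and the step below 4-week GFP- cells (0.139). Only the means of both GFP- groups and of fibroblasts were above 6.16, and none was above 7.03. With each iCM array under 6.16 set to 6.16, the mean of Cd74 was at least 1.52-fold lower in 2-week iCMs than in 2-week GFP- cells. In 4-week iCMs it was at least 1.05-fold lower than in 4-week GFP- cells, and the arrays of these groups overlapped. Both folds are a description of the means.

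H2-Aa, the alpha chain of I-A, was under 6.16 log2 on all 18 arrays. It read 5.85, 5.54 and 5.49 log2 in 2-week iCMs and 5.36, 5.35 and 5.25 in 4-week iCMs. GFP- cells gave 5.66, 5.60 and 5.49 at 2 weeks and 5.99, 5.61 and 5.61 at 4 weeks. Cardiomyocytes gave 5.26, 5.31 and 5.49, against 5.38, 5.47 and 5.30 in cardiac fibroblasts. All 3 arrays of 4-week GFP- cells lay above all 3 arrays of 4-week iCMs and of fibroblasts, and replicate 1 of the 4-week GFP- cells was the highest of the 18 arrays. With every group below background, neither a fold nor a difference is given for H2-Aa, and its tests below compare dim signal.

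H2-Ab1, the beta chain of I-A, lay between 6.22 and 6.61 log2 on all 18 arrays, above 6.16 and below 7.03. Its group means were 6.36 ± 0.16 in 2-week iCMs, 6.47 ± 0.06 in 4-week iCMs, 6.36 ± 0.15 in 2-week GFP- cells, 6.41 ± 0.15 in 4-week GFP- cells, 6.53 ± 0.07 in cardiomyocytes and 6.42 ± 0.16 in fibroblasts (SD, n = 3 each). No step in the order of these means exceeded 0.06, against a pooled SD of 0.133.

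H2-Eb1, the beta chain of I-E, was the one member above 7.03 log2 in all 6 groups. It read 7.87, 7.55 and 7.79 log2 in 2-week iCMs and 7.88, 7.66 and 7.69 in 4-week iCMs. GFP- cells gave 7.60, 7.57 and 7.72 at 2 weeks and 7.28, 7.70 and 7.35 at 4 weeks. Cardiomyocytes gave 7.60, 7.62 and 7.67, against 7.69, 7.66 and 7.70 in fibroblasts. Replicates 1 and 3 of the 4-week GFP- cells were the lowest of all arrays, and replicate 2 of that group lay within the range of both iCM groups and of 2-week GFP- cells.

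Ciita lay between 6.63 and 7.14 log2, with 1 of 18 arrays, replicate 1 of the 2-week iCMs, above 7.03. Its group means were 6.87 ± 0.23 in 2-week iCMs, 6.88 ± 0.14 in 4-week iCMs, 6.76 ± 0.12 in 2-week GFP- cells, 6.77 ± 0.11 in 4-week GFP- cells, 6.85 ± 0.10 in cardiomyocytes and 6.81 ± 0.07 in fibroblasts (SD, n = 3 each). The largest step between neighbours in the order of means was 0.047, and the pooled SD was 0.137.

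The distance between the highest and the lowest group mean was 0.741 log2 for Cd74, 0.303 for H2-Eb1, 0.167 for H2-Ab1 and 0.123 for Ciita. H2-Aa is left out, since all its group means were below background. Over all 19912 genes the median of this distance was 0.457, and 22.8% of genes reached at least 1. The pooled SD of the members (0.129 to 0.140) was close to the median over all genes (0.135).

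**Figure D1:**
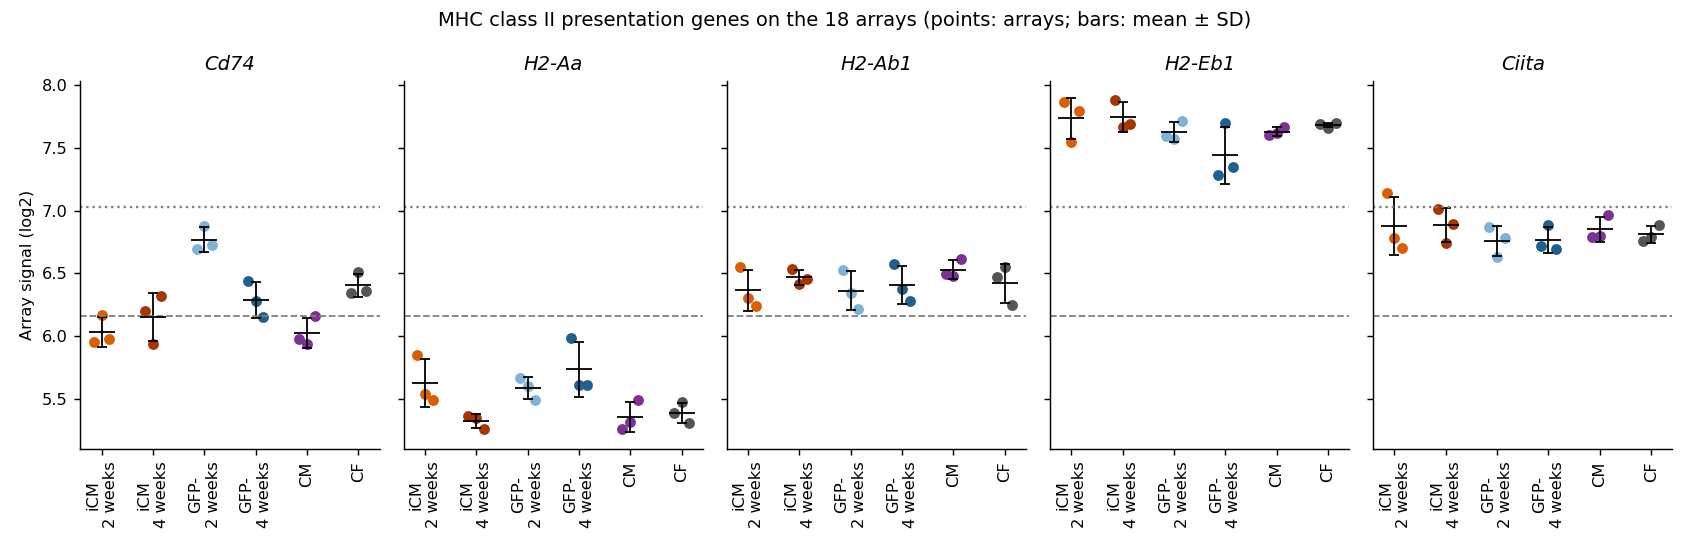
Array signal (log2) of the 5 class II genes, one panel per gene, with the 6 groups along the x axis. Points are arrays, horizontal marks are group means and error bars are SD (n = 3); the dashed line is the background limit of 6.16 and the dotted line the stricter limit of 7.03. Cd74 was highest on the 3 arrays of 2-week GFP- cells, H2-Aa lay under 6.16 on all arrays, and H2-Eb1 was the gene above 7.03 throughout.

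The comparison of cardiomyocytes with cardiac fibroblasts sets side by side the cell types with which the study compared the iCMs. In the limma fit with Benjamini-Hochberg adjustment over all genes, 0 of the 4 tested members passed, while 41.0% of all genes did. Adjusted p-values were 0.48 to 0.855, none of the 4 had an unadjusted p under 0.05, and the 95% confidence intervals of the differences of H2-Ab1, H2-Eb1 and Ciita lay within -0.27 and 0.33 log2.

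In 2-week iCMs against fibroblasts 0 of 4 members passed (33.3% of all genes). H2-Aa (limma adjusted p = 0.112) was the one member with an unadjusted p under 0.05, and the intervals of the other 3 lay within -0.28 and 0.29 log2. In 4-week iCMs against fibroblasts 0 of 4 passed, with 0 at an unadjusted p under 0.05 (29.5% of all genes), and the same 3 intervals lay within -0.18 and 0.30. In 2-week GFP- cells against fibroblasts 0 of 4 passed, with 0 at an unadjusted p under 0.05 (22.7% of all genes), and the 3 intervals lay within -0.29 and 0.18. All these comparisons share the fibroblast arrays.

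In 4-week GFP- cells against fibroblasts 1 of 4 members passed, beside 11.5% of all genes. H2-Aa was higher (limma adjusted p = 0.0482), with group means of 5.73 ± 0.22 in 4-week GFP- cells and 5.39 ± 0.08 in fibroblasts (SD, n = 3), both below background. The call was lost with an intensity trend, in a fit of these groups alone, over all probe sets and in 13 of 18 fits that each left out 1 array. These left out any array of 2-week GFP- cells, 4-week iCMs or fibroblasts, replicates 1 and 2 of the cardiomyocytes, replicate 2 of the 2-week iCMs or replicate 1 of the 4-week GFP- cells, and the adjusted p was 0.297 without the last of these. H2-Eb1 differed by -0.24 ± 0.11 log2 (SE, adjusted p = 0.19), and without replicate 2 of the 4-week GFP- cells by -0.37 (adjusted p = 0.0277).

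The comparison of GFP+ with GFP- cells sets cells that took on the reporter beside those that did not. At 2 weeks 0 of 4 members passed and 0 had an unadjusted p under 0.05, while 34.5% of all genes passed, and the intervals of H2-Ab1, H2-Eb1 and Ciita lay within -0.23 and 0.34 log2. At 4 weeks 2 of 4 members passed, beside 34.2% of all genes, and 1 of them (H2-Aa) did so on signal below background. H2-Aa was lower in 4-week iCMs (limma adjusted p = 0.00605), with means of 5.32 ± 0.06 in iCMs and 5.73 ± 0.22 in GFP- cells (SD, n = 3), both below background. H2-Eb1 was higher by 0.30 ± 0.11 log2 (adjusted p = 0.032), with means of 7.75 ± 0.12 in iCMs and 7.44 ± 0.23 in GFP- cells. The call of H2-Aa was lost without replicate 1 of the 4-week GFP- cells (adjusted p = 0.0571). The call of H2-Eb1 was lost without replicate 1 of the 4-week iCMs (adjusted p = 0.15), without replicate 1 (0.171) or replicate 3 (0.118) of the 4-week GFP- cells, and in a fit of the 2 groups alone (0.0758). H2-Ab1 (0.06 ± 0.11) and Ciita (0.12 ± 0.11) did not pass.

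Over time, 0 of 4 members passed from 2 to 4 weeks in iCMs (11.5% of all genes). H2-Aa had an adjusted p of 0.0869 in 4-week against 2-week iCMs in limma, and passed as lower in 3 of the other fits, after quantile normalization, after cyclic loess and with array weights. In GFP- cells 0 of 4 passed, none with an unadjusted p under 0.05 (17.4% of all genes), and H2-Eb1 differed by -0.19 ± 0.11 (adjusted p = 0.251). The difference between these changes (iCMs minus GFP- cells) passed for 0 of 4 members, beside 3.94% of all genes. H2-Aa (limma adjusted p = 0.129) had an unadjusted p under 0.05 there.

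**Figure D2:**
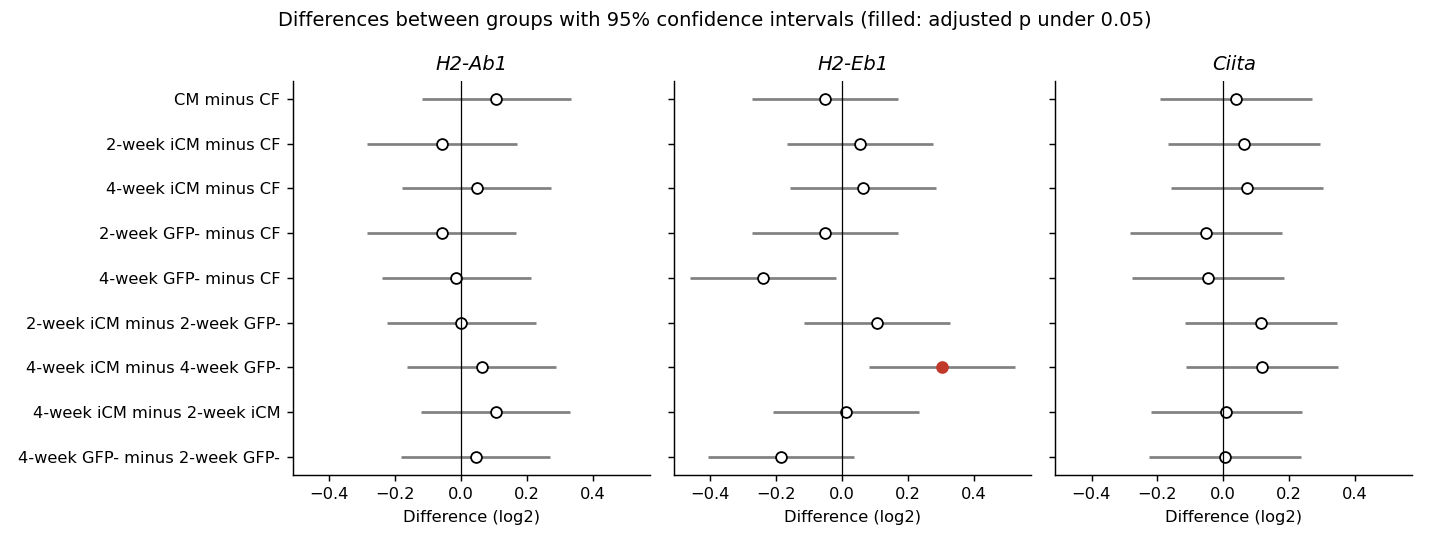
Differences between groups (log2, x axis) for H2-Ab1, H2-Eb1 and Ciita in the 9 pairwise comparisons (y axis), as points with 95% confidence intervals from limma. The 1 filled point passed an adjusted p of 0.05, H2-Eb1 in 4-week iCMs against 4-week GFP- cells (0.30); H2-Aa, below background in every group, is not drawn.

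The rest of the pathway is given in the order in which a class II molecule meets it, from lists drawn up by function. The further class II chains measured were H2-Eb2, a beta chain, and H2-Ea, the I-E alpha chain. Neither passed the limma test in any of the 10 comparisons (at an unadjusted p under 0.05, 1 of these 2 in 2-week iCMs against GFP- cells and 1 in 4-week against 2-week GFP- cells), H2-Ea was below 6.16 in all groups, and H2-Eb2 was above 6.16 and below 7.03 in all groups. Of the peptide editors, H2-DMa, H2-Oa and H2-Ob had a probe set of their own. H2-DMa, the alpha chain of the exchange catalyst H2-DM, read 6.98, 6.26 and 6.49 log2 in cardiomyocytes, against 7.81, 7.71 and 7.87 in fibroblasts. It was 2.33-fold lower in cardiomyocytes (-1.22 ± 0.15 log2, adjusted p = 9.2e-07), and the groups did not overlap. In the other comparisons H2-DMa did not pass. H2-Oa, a chain of the H2-DM inhibitor H2-O, passed nowhere, and its partner chain H2-Ob was lower in 4-week iCMs than in fibroblasts by 0.28 ± 0.10 log2 (difference -0.28, adjusted p = 0.0323). That call was lost without replicate 1 or 2 of the 4-week iCMs or replicate 2 of the fibroblasts.

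Endosomal enzymes that cut the invariant chain and its cargo were bright and differed widely between the same groups. All 6 measured were above 7.03 log2 in every group. In 4-week iCMs against 4-week GFP- cells 0 were higher and 6 lower, with a median of -1.19 log2 (34.2% of all genes called, median 0.05). At 2 weeks 0 were higher and 4 lower, with a median of -0.96 (34.5% of all genes called, median -0.02). The macrophage markers had median differences of -2.85 at 4 weeks and -2.37 at 2 weeks in these comparisons, as a description. Their part in the enzyme values was not tested. Cathepsin S (Ctss), which makes the last cuts in the invariant chain, read 11.06, 11.11 and 11.05 log2 in 4-week iCMs, against 13.01, 13.09 and 13.13 in 4-week GFP- cells. It was 4.01-fold lower (-2.00 ± 0.12, adjusted p = 5.4e-11). Legumain (Lgmn), an asparagine-specific protease, was 4.43-fold lower in the same comparison (-2.15 ± 0.09, adjusted p = 3e-13), and cathepsin B (Ctsb) was 2.93-fold lower.

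In cardiomyocytes against fibroblasts 0 of the 6 enzymes were higher and 6 lower, with a median of -2.34 log2 (41.0% of all genes called, median 0.03), and Ctss was 37.0-fold lower (-5.21 ± 0.12, adjusted p = 1.34e-17). Against fibroblasts, 4 of 6 were higher in 2-week GFP- cells and 5 of 6 in 4-week GFP- cells, with 0 lower at either time (22.7% and 11.5% of all genes called). Ifi30, the thiol reductase GILT that opens disulphide bonds of antigens, was higher in 2-week iCMs than in fibroblasts. It read 9.83, 10.13 and 9.97 log2 in 2-week iCMs, against 9.12, 9.11 and 9.12 in fibroblasts. The difference was 1.81-fold (0.86 ± 0.11, adjusted p = 1.78e-06). Ifi30 was the one enzyme of the 6 called higher there, while 4 were lower (33.3% of all genes called). Cathepsin L (Ctsl), which trims the invariant chain in thymic epithelium, was higher in 4-week than in 2-week GFP- cells (0.46 ± 0.08, adjusted p = 0.000587). It was the 1 enzyme of the 6 called there, beside 17.4% of all genes.

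Surface turnover of class II is set by the ubiquitin ligases Marchf1 and Marchf8 and by Cd83, which holds class II at the surface. All 3 were lower in iCMs than in GFP- cells at both times, with medians of -0.42 at 2 weeks and -0.74 at 4 weeks (34.5% and 34.2% of all genes called). Marchf1 read 7.02, 7.03 and 7.12 log2 in 4-week iCMs, against 7.96, 7.74 and 7.67 in 4-week GFP- cells (-0.74 ± 0.11, adjusted p = 1.38e-05). Cd83 read 7.27, 7.01 and 7.60 in 4-week iCMs, against 8.40, 8.52 and 8.18 in 4-week GFP- cells (-1.07 ± 0.15, adjusted p = 9.46e-06). The 4-week GFP- cells were above fibroblasts for Cd83 (0.91 ± 0.15, adjusted p = 0.000309), and the groups did not overlap. The call of Cd83 at 2 weeks was lost in 12 of the other fits and that of Marchf8 at 4 weeks in 5.

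Of 7 factors that bind the promoter module, 3 were higher and 1 lower in cardiomyocytes than in fibroblasts (median -0.02, 41.0% of all genes called). In 4-week iCMs against 4-week GFP- cells 1 was higher and 2 lower (median -0.05, 34.2% of all genes called). Rfxank, a subunit of the RFX complex, read 8.44, 8.33 and 8.33 log2 in 4-week iCMs, against 7.72, 7.60 and 7.61 in 4-week GFP- cells (0.72 ± 0.09, adjusted p = 1.44e-06). It was also higher in cardiomyocytes than in fibroblasts (0.98 ± 0.09, adjusted p = 1.17e-08). Nfya, the NF-Y subunit that contacts the CCAAT motif, was lower in iCMs than in GFP- cells, by 0.69 ± 0.10 at 2 weeks (difference -0.69) and by 0.54 ± 0.10 at 4 weeks (difference -0.54). Nfyc was higher in cardiomyocytes than in fibroblasts (1.17 ± 0.10, adjusted p = 4.97e-09), while Rfx5 and Nfyb passed in none of the pairwise comparisons. In 4-week GFP- cells against fibroblasts 0 of the 7 passed the limma test, with 1 at an unadjusted p under 0.05 (11.5% of all genes called).

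Interferon-gamma signalling is the main inducible input to Ciita. Ifng, the cytokine, passed the limma test in no comparison and lay between 6.77 and 7.37 log2. Its unadjusted p was under 0.05 in 1 of the 10, 4-week against 2-week GFP- cells (0.24 ± 0.11, adjusted p = 0.15). Of 8 genes measured, 0 were higher and 6 lower in 4-week iCMs than in 4-week GFP- cells (median -0.66, against 34.2% called and a median of 0.05 over all genes). At 2 weeks 0 were higher and 4 lower (median -0.32, against 34.5% called and a median of -0.02 over all genes). Ifngr1, the ligand-binding receptor chain, read 9.24, 9.68 and 9.50 log2 in 4-week iCMs, against 11.15, 11.23 and 11.34 in 4-week GFP- cells. It was 3.40-fold lower (-1.76 ± 0.12, adjusted p = 3.62e-10). Irf2, which binds the Ciita promoter with Irf1, was 2.44-fold lower in the same comparison (-1.29 ± 0.10, adjusted p = 1.82e-09).

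In 4-week GFP- cells against fibroblasts 4 of these 8 were higher and 0 lower (median 0.22, against 11.5% called and a median of -0.01 over all genes). Irf1, the factor that carries the signal to the Ciita promoter, read 8.56, 8.58 and 8.23 log2 in 4-week GFP- cells, against 7.85, 7.87 and 7.97 in fibroblasts (0.56 ± 0.11, adjusted p = 0.00128). Irf1 was also higher in 4-week than in 2-week GFP- cells (0.53 ± 0.11, adjusted p = 0.00193). The calls of the receptor chains Ifngr1 and Ifngr2 in 4-week GFP- cells against fibroblasts were lost in 3 and 5 of the other fits. Ciita itself differed by -0.05 ± 0.11 in that comparison (adjusted p = 0.88).

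MHC class I presentation, the route for peptides made inside the cell, has its own transactivator, Nlrc5. Of 13 genes measured, 0 were higher and 10 lower in cardiomyocytes than in fibroblasts (median -0.70, 41.0% of all genes called), and 0 were higher and 7 lower in 4-week iCMs than in 4-week GFP- cells (median -0.24, 34.2% of all genes called). Psmb8, an immunoproteasome subunit, read 7.94, 8.0 and 8.21 log2 in 4-week iCMs, against 10.52, 10.50 and 10.67 in 4-week GFP- cells. It was 5.70-fold lower (-2.51 ± 0.12, adjusted p = 2.17e-12), and Psmb9 was 3.44-fold lower. B2m, the light chain of class I molecules, was 2.77-fold lower in cardiomyocytes than in fibroblasts (-1.47 ± 0.07, adjusted p = 1.33e-12). The listed class I genes H2-K1, H2-D1 and H2-T23 had no probe set of their own and are not among the 13. In 2-week iCMs 2 of 13 were higher and 5 lower than in fibroblasts (median -0.18, 33.3% of all genes called). Against fibroblasts, 6 of 13 were higher in 2-week GFP- cells (median 0.28, 22.7% of all genes called) and 4 of 13 in 4-week GFP- cells (median 0.07, 11.5% of all genes called), with 0 lower. The calls of Erap1 and Psmb9 in 4-week GFP- cells were lost in 7 and 6 of the other fits.

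T cell costimulation supplies the signal that goes with the peptide. The 6 genes listed for it include the receptor Cd40 and the inhibitory ligands Cd274 and Pdcd1lg2. Of the 6, 0 were higher and 4 lower in 4-week iCMs than in 4-week GFP- cells (median -0.55, 34.2% of all genes called). At 2 weeks 0 were higher and 5 lower (median -0.69, 34.5% of all genes called). Cd86, a ligand of CD28, read 5.97, 6.01 and 6.13 log2 in 4-week iCMs, below background, against 8.78, 8.65 and 9.07 in 4-week GFP- cells. It was at least 6.38-fold lower, taken against the limit of 6.16 (adjusted p = 1.91e-12). Cd80, the other CD28 ligand, was higher in 4-week GFP- cells than in fibroblasts (0.93 ± 0.15, adjusted p = 0.000288). Cd274, the inhibitory ligand PD-L1, read 8.60, 8.999 and 8.80 in 4-week GFP- cells, against 7.58, 7.55 and 7.72 in fibroblasts, a 2.27-fold difference (1.18 ± 0.11, adjusted p = 1.91e-07).

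**Figure D3:**
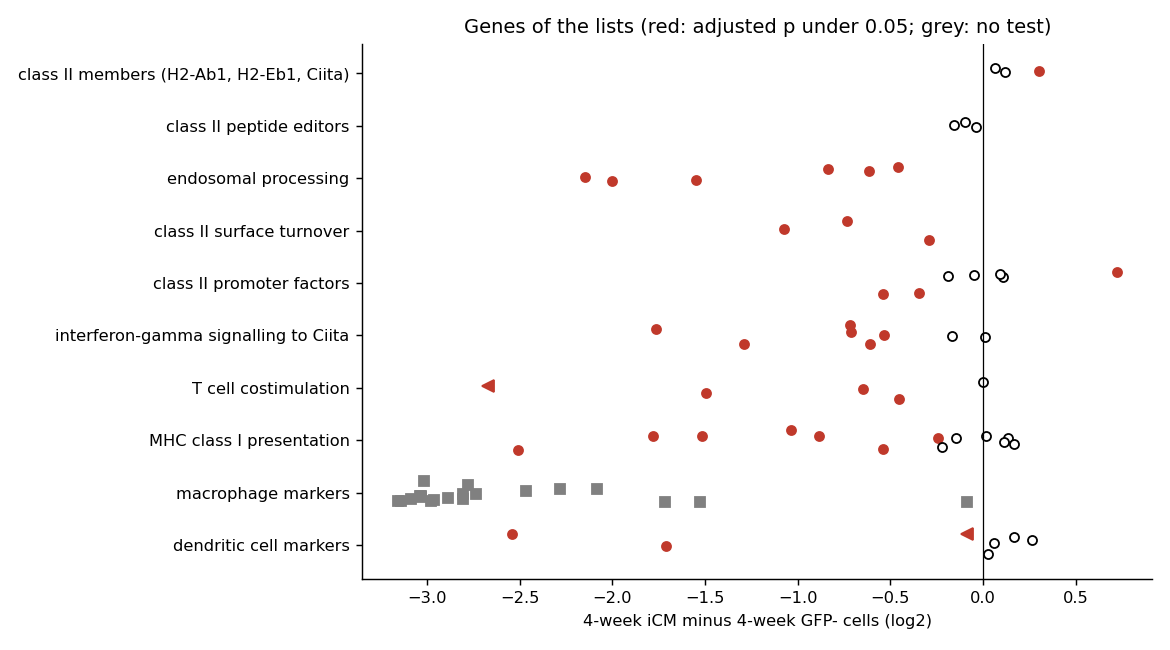
Difference between 4-week iCMs and 4-week GFP- cells (log2, x axis) for H2-Ab1, H2-Eb1, Ciita and the measured genes of 7 functional lists and 2 marker lists (y axis, spread vertically for legibility), without genes below background in both groups. Red symbols passed an adjusted p of 0.05, open symbols did not, triangles are bounds where 1 group was below background, and grey squares are macrophage markers, which were part of the choice of genes and carry no test. Endosomal enzymes reach -2.15 (Lgmn), and H2-Eb1 lies at 0.30.

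The macrophage markers took part in the choice of genes, so their levels are given as a description. Their mean over 20 genes was 9.22 to 9.51 log2 on 2-week iCM arrays, 8.83 to 8.96 on 4-week iCM arrays, 11.50 to 11.54 on 2-week GFP- arrays, 11.43 to 11.52 on 4-week GFP- arrays, 6.68 to 6.86 on cardiomyocyte arrays and 11.16 to 11.37 on fibroblast arrays. Cd68, a macrophage sialomucin, averaged 12.94 ± 0.03 in 4-week GFP- cells and 12.54 ± 0.17 in fibroblasts (SD, n = 3). Lyz2, a lysozyme, averaged 13.26 ± 0.07 in 4-week GFP- cells and 13.21 ± 0.06 in fibroblasts. The 20 genes did not all move alike from fibroblasts to 4-week GFP- cells. Mertk differed by 1.42 log2 and Cx3cr1 by -1.01, and the median was 0.21. In both groups 19 of the 20 macrophage genes had means above 7.03. The part of these markers in the class II values, and in those of the other lists, was not tested.

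Of 10 dendritic cell markers, 6 had group means above 6.16 in both iCM groups, 7 in both GFP- groups, 6 in cardiomyocytes and 6 in fibroblasts, and the mean over the list ran from 6.57 on a 2-week iCM array to 7.10 on a 4-week GFP- array. In 4-week iCMs against 4-week GFP- cells 0 were higher and 3 lower (median 0.04), beside 34.2% of all genes called. Itgax, the integrin CD11c that dendritic cells share with some macrophages, read 9.77, 9.53 and 9.13 log2 in 4-week GFP- cells, against 7.41, 7.45 and 7.38 in fibroblasts. It was 4.18-fold higher (2.06 ± 0.17, adjusted p = 4.88e-08) and the 1 dendritic cell marker of 10 called in that comparison, beside 11.5% of all genes. Irf8, a factor of dendritic cells and macrophages, was 3.27-fold lower in 4-week iCMs than in 4-week GFP- cells (-1.71 ± 0.13, adjusted p = 2.71e-09). Of 7 B cell markers 4 or 5 had group means above 6.16, and the list mean stayed between 6.25 and 6.60 on all arrays. In 4-week iCMs against 4-week GFP- cells 1 was higher and 1 lower (34.2% of all genes called). Against fibroblasts, 2 were higher in 2-week GFP- cells and 1 in 4-week GFP- cells, with 0 lower (22.7% and 11.5% of all genes called). Cd22 was among those called each time, and these calls of Cd22 held in all 26 other fits. The list did not follow Cd22, with medians against fibroblasts of 0.20 at 2 weeks and -0.10 at 4 weeks. In 4-week against 2-week GFP- cells 0 of the 7 were higher and 3 lower (median -0.25, 17.4% of all genes called). Of 9 T and NK cell markers 4 had group means above 6.16 in every group, and 1, Cd3d, passed in any comparison. That was cardiomyocytes against fibroblasts (41.0% of all genes called), both below background, and the call was lost in 5 of the other fits.

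Endothelial markers also moved between these groups. Their mean over 6 genes was 8.61 to 9.01 log2 on 4-week GFP- arrays and 8.89 to 9.10 on cardiomyocyte arrays, against 6.55 to 6.70 on fibroblast arrays. In 4-week GFP- cells against fibroblasts 5 of the 6 were higher and 0 lower (11.5% of all genes called). The called differences were uneven. Tie1 differed by 0.34 log2, a call lost in 4 of the other fits. Emcn, below background in fibroblasts, differed by at least 4.82. Endothelial cells can carry class II after interferon-gamma, and the part of these cells in the call of H2-Aa in 4-week GFP- cells was not tested.

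**Figure D4:**
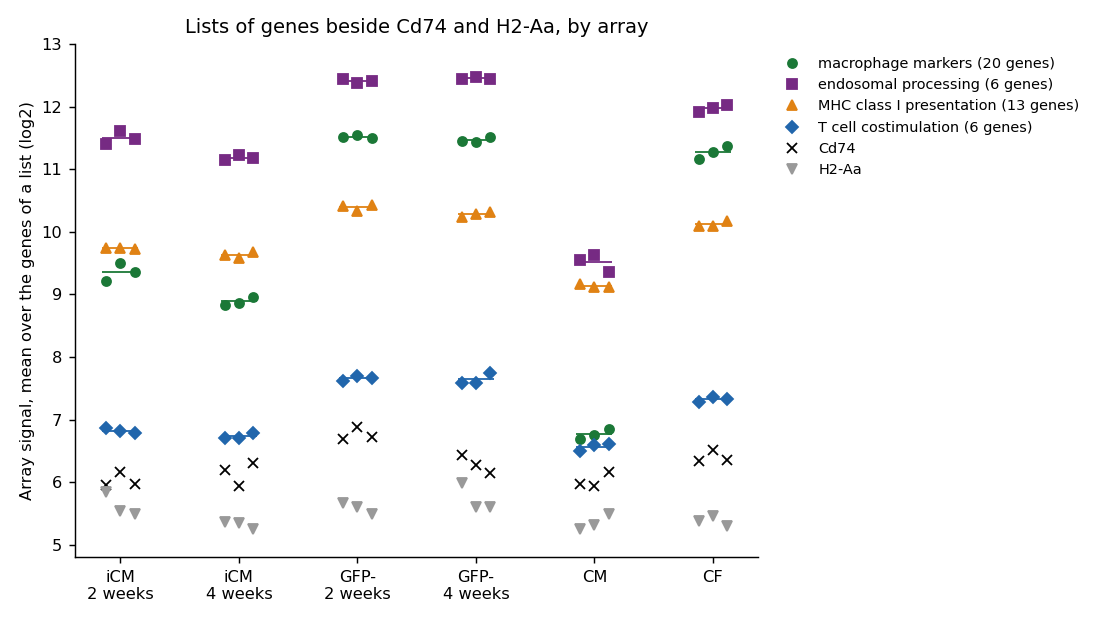
Mean array signal (log2, y axis) of 4 gene lists on each array, with Cd74 and H2-Aa, by group along the x axis. Points are arrays and short lines are group means (n = 3); levels are to be compared between groups within one symbol, not between symbols, since probe sets differ in response. Macrophage markers spanned 6.68 to 11.54 over the arrays and Cd74 spanned 5.94 to 6.88, the readout by which the genes were chosen.

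Genes whose pattern over the 18 arrays was most like that of each member were ranked by Pearson's r among 15839 genes (15840 for H2-Aa) above background in at least 1 group. The points share arrays and groups, so r is a description with no p. Cd74 was most like Hcar2, a niacin receptor (0.919), Card9, a signalling adaptor of myeloid cells (0.913), and Cotl1, an actin-binding protein (0.899), whose group means spanned 1.13, 1.00 and 2.24 log2. H2-Aa was most like Ccdc130 (0.782), Zfp628 (0.772) and Kat2a (0.759). H2-Ab1 was most like Pglyrp1 and Fam186b (both 0.833) and Zbtb3 (0.790), and H2-Eb1 like Prr36 (0.876), Hhipl2 (0.806) and Dio3 (0.801). Ciita was most like Chrna10 (0.903), Pla2g2c (0.872) and Trim71 (0.871). For the 4 members other than Cd74 the group means of the genes most like them spanned at most 0.45 log2.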

How the data were processed

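The authors deposited log2 intensities per probe set for 18 arrays, made with RMA per the submitters' processing notes, from RNA isolated with PicoPure and amplified with a MessageAmp kit per the labels' protocols. The number of arrays limits the precision. Of 28682 probe sets, 21755 named 1 gene, and the probe set with the highest mean per gene was kept (19912 genes). Listed genes with no probe set of their own in the annotation used, such as H2-K1, were not analysed here.

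Group was the only term in a limma 3.58.1 fit (R 4.3.3) to all 18 arrays, with 10 comparisons. Two-sided p-values were adjusted per comparison over 19912 genes (Benjamini-Hochberg), with 0.05 as the threshold for a call. The fit was tested on simulated data for cardiomyocytes against fibroblasts (seed 1). Alternatives changed the normalization, the array weights, the variance trend, the arrays fitted, the low-signal filter (lowest 25 percent), the probe sets and the replicate block.

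The members and all 15 lists (124 genes named, 114 measured) were chosen with earlier results of these data known. A rule set which genes could be named: the members, any gene of a list with 6 or fewer measured, up to 4 of the largest called changes per list and comparison, and the 3 genes most like each member. Not every gene that the rule allows is named. Rfx5, Nfyb, Ifng and Nlrc5 fall outside this rule and were named after their values were seen.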

Additional observations from a re-analysis of the deposited data

Results flagged for a closer look

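None of the class II genes is among these results. For 10 genes of the pathway and marker lists, macrophage markers left aside, the change between 2 and 4 weeks differed between iCMs and GFP- cells in limma's interaction test, adjusted over all genes (3.94% of which were called). Values are log2 changes in iCMs minus those in GFP- cells.

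Of immune genes, the difference was -0.85 for Cd274, the inhibitory ligand PD-L1 (adjusted p = 0.00265), with a change of -0.14 in iCMs and 0.71 in GFP- cells. It was -1.27 for Itgax (adjusted p = 0.00401), with a change of -0.05 in iCMs and 1.22 in GFP- cells. Blk, a B cell kinase whose mean was below background in 4-week GFP- cells, gave 0.59.

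Of other genes, the endothelial markers gave -1.46 for Pecam1, -1.24 for Cdh5, -1.04 for Emcn and 0.87 for Kdr. The fibroblast markers gave -1.29 for Pdgfra and -1.33 for Dcn. The cardiomyocyte gene Pln gave 1.77 (adjusted p = 0.00532), with a change of 2.06 in iCMs and 0.29 in GFP- cells. Of the 26 other fits, the call was lost for Blk in 9 and for Kdr in 3, and it held in all 26 for the other 8 genes. The causes were not tested.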

How the results depend on the processing

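In 4-week GFP- cells against fibroblasts, the 1 class II gene called became 0 with an intensity trend, with only the groups compared, without genes of low signal (which drops H2-Aa) and over all probe sets, and 0 to 2 when 1 array was left out. In 4-week iCMs against 4-week GFP- cells, the 2 called became 1 with only the groups compared and 1 without genes of low signal, and 0 to 2 when 1 array was left out. In 4-week against 2-week iCMs, 0 became 1 (H2-Aa) with quantile normalization, with cyclic loess and with array weights. The difference between the changes of iCMs and GFP- cells likewise went to 1 (H2-Aa) under these 3 settings. In 4-week against 2-week GFP- cells, leaving out 1 array gave 0 to 1, the 1 being H2-Eb1 without replicate 2 of the 4-week GFP- cells. In the other 5 comparisons the count was 0 under every alternative run. Except for the low-signal filter, the cause of these moves was not tested. Of 362 calls of list genes other than macrophage markers, 306 held in every other fit and 56 were lost in at least 1, and no called difference changed sign.

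The main fit did not pair arrays by replicate number. Of 27 same-numbered pairs, 8 had a correlation of deviations above 0.1. Values were 0.454, 0.345 and 0.084 for 4-week with 2-week iCMs. For 2-week iCMs with 2-week GFP- cells they were 0.27, 0.378 and -0.301. Differently numbered pairs were not examined, so these values cannot decide whether the numbers mark paired arrays. With the replicate block, the counts of class II genes called were 1 in 4-week GFP- cells against fibroblasts, 2 in 4-week iCMs against 4-week GFP- cells and 0 elsewhere, as without it.

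H2-Aa lay below background on every array, so its calls rest on dim signal, and 3 arrays per group limit every test.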
